A study of Mus musculus with 20 samples.

Results

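Elastic fibre genes are the genes for the proteins that build and cross-link the rubber-like fibres of the extracellular matrix. The 10 described here were taken by symbol: Eln, Fbn1, Fbn2, Fbln1, Fbln2, Fbln5, Efemp2, Lox, Loxl1 and Mfap4, out of 24347 gene symbols measured. Cells secrete tropoelastin, the product of Eln, which is laid on a scaffold of fibrillin microfibrils with the help of fibulins, and lysyl oxidases then turn it into an insoluble polymer. In bone and its marrow the same microfibrils also hold growth factors of the TGF-beta and BMP families, and lysyl oxidases cross-link collagen as well as elastin. PDGFRα+ stromal cells are a source of this matrix.

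The study measured RNA in 2 stromal populations sorted from the marrow and bone of femora and tibiae of C57BL/6 mice. CAR cells, the reticular cells rich in the chemokine Cxcl12, carried the sort phenotype CD45-CD31-Lin-PDGFRα+Sca1-. PaS cells, a progenitor population, differed from it in being Sca1+. Animals of the wt groups were Ebf1+/+;Prx1+/cre and those of the ko groups Ebf1fl/fl;Prx1+/cre, so every group carried the Prx1 cre allele, whose promoter is active in the mesenchyme of the developing limb, and the groups differed in the floxed alleles of Ebf1, a transcription factor of B cells and mesenchyme. Each population has a wt and a ko group (CAR wt and CAR ko, PaS wt and PaS ko) of 3 libraries, and the age of the animals is not given in the sources used here. Nothing in the labels says whether replicates were different animals, so p-values cover the spread between these samples only, which may be technical. The 8 chromatin accessibility samples of the series were not analysed here.

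Levels are given as FPKM, which counts fragments per transcript length and library size and so allows different genes to be compared per length. Read depth is not given, and the summed FPKM of a library ran from 491801 to 526074. At 24.6%, the share of genes listed at 0 was lowest in PaS wt replicate 1, and it was 33.3% to 37.0% elsewhere. Ebf1 was not lower in libraries labelled ko, at 48.1 ± 1.10 FPKM in CAR wt, 57.5 ± 1.99 in CAR ko, 55.9 ± 5.89 in PaS wt and 62.5 ± 2.18 in PaS ko (SD, n = 3 each). In CAR cells limma called it higher in ko (log2 fold change 0.25, adjusted p = 0.040), a call lost in 8 of 15 other settings. In PaS cells it was not called (0.16, adjusted p = 0.25). Since FPKM of the whole gene may count exons that the deletion spares, this does not test the labels, and ko below means the libraries labelled ko. Summed over 6 CAR markers, the level was 14783 to 17060 FPKM in CAR and 4938 to 5702 FPKM in PaS libraries, mostly Cxcl12 (mean 13251 FPKM in CAR wt). Over 6 PaS markers it was 78.4 to 88.1 FPKM in CAR and 2598 to 3577 FPKM in PaS libraries. Of these, Ly6a (mean 1963 FPKM in PaS wt) encodes Sca1, on which the populations were sorted, so its difference was built in. In CAR wt against PaS wt libraries, all 6 CAR markers were called higher and all 6 PaS markers lower. Of all tested genes, 20.5% and 22.7% were. The markers also moved with genotype. The PaS marker sum was 3117 to 3577 FPKM in PaS wt and 2598 to 2684 FPKM in PaS ko libraries. Its largest part, Ly6a, had means of 1963 FPKM in wt and 1551 FPKM in ko and was not called (adjusted p = 0.26). It was called with the compared groups alone (0.023). Dpt had a higher mean in PaS ko (343 against 299 FPKM) and was not called. In PaS ko libraries 3 of 6 PaS markers (Pdgfra, Cd34 and Pi16) fell, where 4.03% of all tested genes fell. In CAR ko libraries 3 of 6 CAR markers (Adipoq, Foxc1 and Kitl) fell, where 5.74% of all tested genes fell. In CAR cells the PaS marker sum was 78.4 to 82.3 FPKM in wt and 84.5 to 88.1 FPKM in ko libraries. There 2 markers were higher in ko (Ly6a and Dpt) and 2 lower (Cd34 and Pi16), where 6.51% and 5.74% of all tested genes were. The part of these markers in the ko minus wt differences below was not tested. The call of Kitl was lost with unfiltered genes and without any one of 5 of the 6 CAR libraries, all but ko replicate 3. In CAR cells the call of Pi16 was lost in 10 of 15 other settings, that of Dpt in 2 and that of Ly6a in 1. For Pi16 these included leaving out CAR wt replicate 2 or 3 or any CAR ko library. Transcripts of 9 blood cell markers made up 2.13% to 2.52% of all FPKM in CAR wt, 0.995% to 1.09% in CAR ko, 4.22% to 4.53% in PaS wt and 1.63% to 1.68% in PaS ko libraries, although the sort removed CD45+ cells, and their part in the differences below was not tested.

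Sequences upstream of the start site are shown for 3 fibulins, those with a window that lies outside the gene. Of the 10 genes, 5 have an entry in the RefSeq promoter table of GRCm38.p6, and for Fbln5, Fbln1 and Efemp2 the 250 bases before the start site lie outside the gene. Each is printed 5′ to 3′ on the strand of its gene, with matches to the GC box (GGGCGG or CCGCCC) and to the core of the palindrome bound by EBF proteins (CCCNNGGG) in capitals. The windows are chr12:101819120-101819369 on the minus strand for Fbln5, chr15:85205699-85205948 on the plus strand for Fbln1 and chr19:5473696-5473945 on the plus strand for Efemp2.
Fbln5: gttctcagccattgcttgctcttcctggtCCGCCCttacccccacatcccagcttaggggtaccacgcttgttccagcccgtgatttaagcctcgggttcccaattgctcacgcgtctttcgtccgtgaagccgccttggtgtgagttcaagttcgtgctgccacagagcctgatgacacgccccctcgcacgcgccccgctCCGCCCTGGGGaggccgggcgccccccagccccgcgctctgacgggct
Fbln1: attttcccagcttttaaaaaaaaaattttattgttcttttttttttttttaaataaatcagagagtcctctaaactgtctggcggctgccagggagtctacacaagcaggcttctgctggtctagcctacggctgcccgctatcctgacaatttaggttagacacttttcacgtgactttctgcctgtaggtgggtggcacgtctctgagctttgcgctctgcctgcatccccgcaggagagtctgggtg
Efemp2: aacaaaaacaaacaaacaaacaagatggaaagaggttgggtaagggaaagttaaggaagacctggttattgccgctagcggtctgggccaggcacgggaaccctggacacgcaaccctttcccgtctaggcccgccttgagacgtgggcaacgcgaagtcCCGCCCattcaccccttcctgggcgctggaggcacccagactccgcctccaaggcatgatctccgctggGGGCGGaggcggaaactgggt
The Fbln5 window had a GC content of 65.2%, GC boxes starting at positions -221 and -48 from the start site, and a core of the EBF palindrome at -45 that shares letters with the second box. The Efemp2 window had a GC content of 59.2% and GC boxes at -90 and -21. In the Fbln1 window, at 46.4% GC, neither motif was found, and none of the 3 windows held the full EBF palindrome, which adds a base at each end of the core, or the TATA motif (TATAAA or TTTATA). Among all 32851 windows of the table, cut to the same 250 bases and read on both strands, 32.74% held a GC box, 11.82% the core, 0.78% the full palindrome and 12.37% the TATA motif, and the median GC content was 52.4%. These matches describe letters and not binding.

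All 10 genes were detected in both populations. Their summed level was similar in the 4 groups, though highest in PaS ko, while its make-up differed. The sum was 957 ± 11.2 FPKM in CAR wt, 946 ± 1.59 in CAR ko, 933 ± 1.23 in PaS wt and 998 ± 14.1 in PaS ko libraries (SD, n = 3 each), or 0.177% to 0.206% of all FPKM. Every PaS ko library, at 984 to 1013 FPKM, lay above every library of the other groups, which reached at most 968 FPKM. In CAR wt libraries Fbln5 made up 37.0% of the sum, Efemp2 22.0%, Lox 16.0% and Fbln2 0.533%. In PaS wt libraries Fbln2 made up 22.0% and Fbln5 13.5%. Eln itself, the fibre's main component, was 0.312% of the sum in CAR wt and 3.19% in PaS wt libraries.

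**Figure D1:**
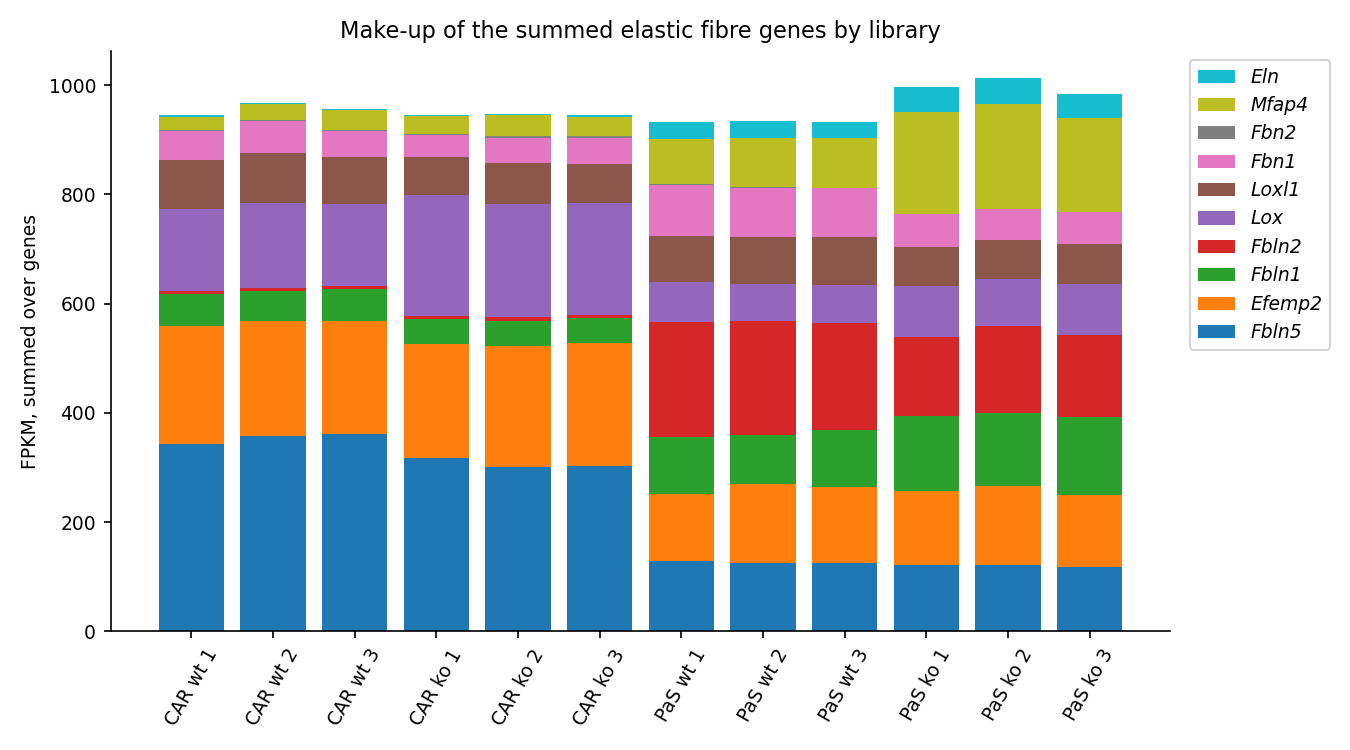
Stacked bars of FPKM (vertical axis, from 0) of the 10 elastic fibre genes in each of the 12 libraries (horizontal axis). The bars are of similar height, between 932 and 1013 FPKM, while Fbln5 fills the largest block in CAR libraries and Fbln2 and Mfap4 are wide only in PaS libraries.

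Ordered by level in CAR wt libraries, the genes ran Fbln5, Efemp2, Lox, Loxl1, Fbln1, Fbn1, Mfap4, Fbln2, Eln and Fbn2. The libraries of neighbours overlapped only for Fbln1 with Fbn1 and for Eln with Fbn2. In CAR ko libraries the order was the same, and Efemp2 also overlapped with Lox. In PaS wt libraries the order was Fbln2, Efemp2, Fbln5, Fbln1, Fbn1, Mfap4, Loxl1, Lox, Eln and Fbn2. There Efemp2 overlapped with Fbln5, and Fbln1, Fbn1, Mfap4 and Loxl1 each with the next. In PaS ko libraries Mfap4 came first, followed by Fbln2, Efemp2, Fbln1, Fbln5, Lox, Loxl1, Fbn1, Eln and Fbn2, and only Efemp2 and Fbln1 overlapped.

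Replicates were close to each other for most of these genes. Over the 8 genes other than Eln and Fbn2, the coefficient of variation within a group had a median of 3.89% and a range of 0.200% to 19.4%. Fbn2 was under 1 FPKM in every PaS library, and Eln under 5 FPKM in every CAR library, so their differences within those populations are the least precise.

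**Figure D2:**
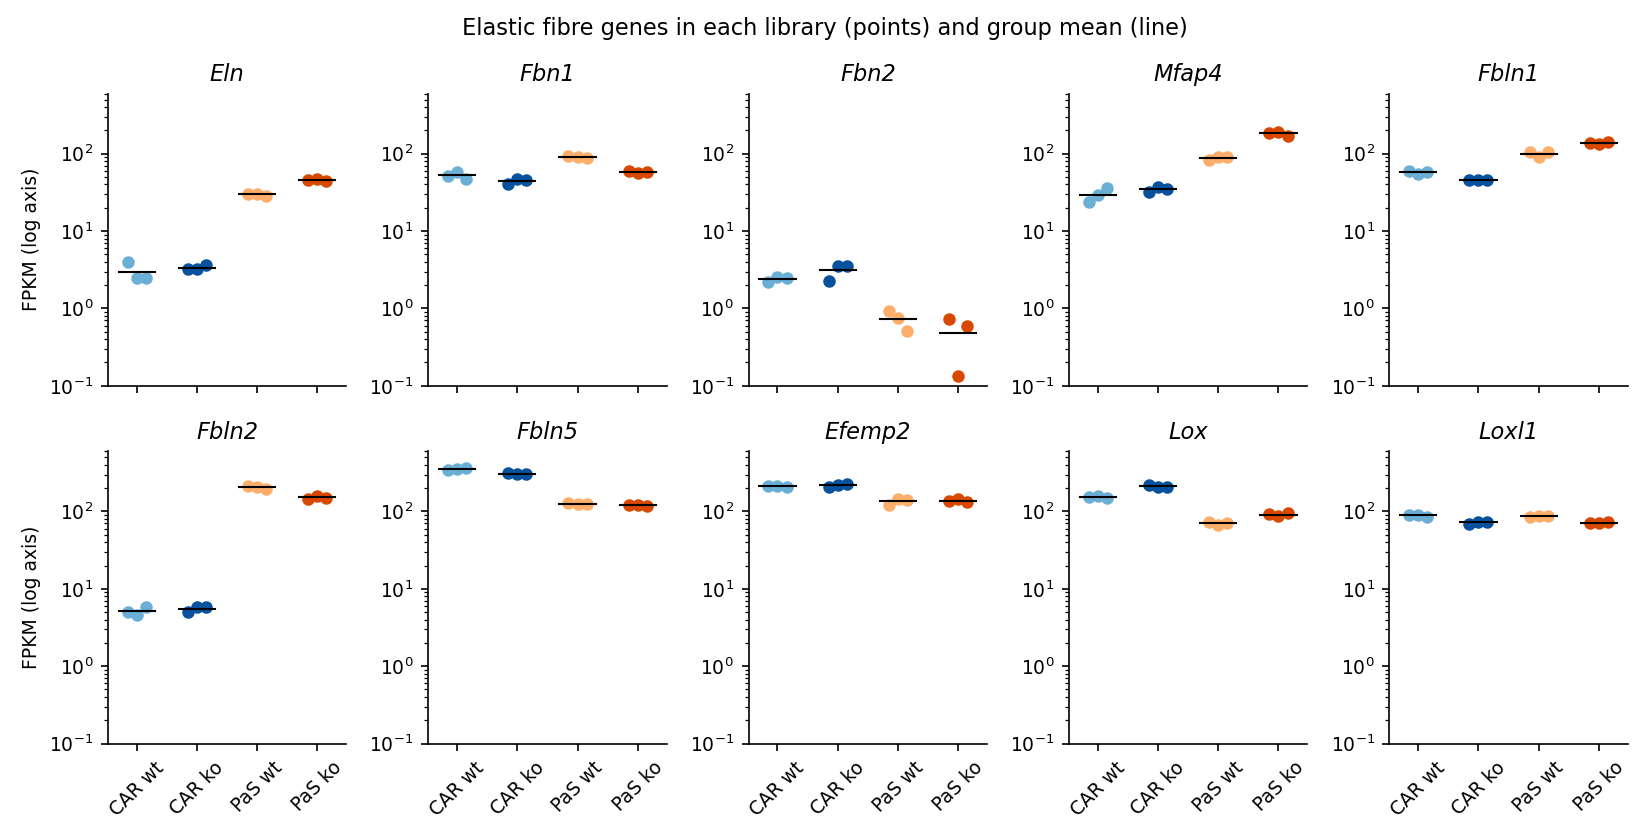
FPKM (log axis) of each elastic fibre gene by group (wt and ko libraries of CAR, then of PaS cells), with a point per library and a line at the mean of 3. Eln, Fbln2 and Mfap4 lie higher in PaS than in CAR libraries, Fbln5, Efemp2, Lox and Fbn2 lie lower, and the Loxl1 libraries of both wt groups overlap.

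The first comparison asks how the 2 populations differ in wt animals. PaS wt libraries had more elastin, fibrillin-1, Mfap4, Fbln1 and Fbln2, and CAR wt libraries had more fibrillin-2, Fbln5, Efemp2 and Lox, while Loxl1 was not called. A gene was called at an adjusted p under 0.05 in limma's test of log2(FPKM + 1). Of the 10 genes, 9 were called, 4 higher and 5 lower in CAR cells, where 43.2% of all 12938 tested genes were called (20.5% higher, 22.7% lower). The median size of the log2 difference was 1.05 over the 10 genes and 0.31 over all tested genes. The 2 groups' libraries did not overlap for the same number, 9 of 10 genes, against 51.2% of all tested genes. These counts include Fbn2, which passed the filter on low values only through its CAR libraries, and without it 8 of 9 genes were called, 3 higher and 5 lower. In bulk samples, fewer cells of a type and less RNA per cell cannot be told apart.

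Among the components of the fibre core, Eln, which encodes tropoelastin, had 4.02, 2.44 and 2.48 FPKM in the CAR wt libraries and 30.2, 30.5 and 28.5 FPKM in the PaS wt libraries. Every PaS library lay above every CAR library, by 9.97-fold in mean FPKM (log2 difference on FPKM + 1, CAR minus PaS, -2.97, SE 0.13, adjusted p = 3.2e-11). The gene overlaps a long noncoding RNA gene in the RefSeq annotation, as does Fbn2, and reads of overlapping genes cannot be told apart where counting does not use strand. Fbn1, the main fibrillin of adult microfibrils, had 52.2, 57.8 and 47.7 FPKM in CAR wt and 93.0, 90.0 and 89.1 FPKM in PaS wt libraries. The groups did not overlap, and the PaS mean was 1.73-fold higher (log2 difference -0.78, SE 0.08, adjusted p = 7.9e-07). Fbn2, a fibrillin best known from developing tissue, went the other way, with 2.2, 2.53 and 2.49 FPKM in CAR wt and 0.935, 0.746 and 0.514 FPKM in PaS wt libraries. Since it reached 1 FPKM in CAR libraries only, a difference in this direction was built in (log2 difference 0.98, SE 0.20). Mfap4, a fibrinogen-related glycoprotein that binds elastin and fibrillin, had 24.1, 29.4 and 35.6 FPKM in CAR wt and 83.5, 90.5 and 91.6 FPKM in PaS wt libraries. PaS libraries were all higher, by 2.98-fold (log2 difference -1.56, SE 0.11, adjusted p = 8.7e-09).

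The fibulins, which link tropoelastin to microfibrils or to basement membranes, divided between the populations. Fbln2, which also binds basement membrane, had 5.0, 4.54 and 5.75 FPKM in CAR wt and 210.4, 209 and 195 FPKM in PaS wt libraries. Its PaS level was 40.2-fold higher, the largest difference among the 10 genes (log2 difference -5.08, SE 0.09, adjusted p = 5.9e-16). Fbln1, a fibulin of elastic fibres and basement membranes, had 58.9, 55.4 and 58.0 FPKM in CAR wt and 105, 89.6 and 105 FPKM in PaS wt libraries, higher in every PaS library (log2 difference -0.79, SE 0.07, adjusted p = 1.4e-07). Fbln5, which tethers tropoelastin to microfibrils and cells, had 344, 358 and 362 FPKM in CAR wt and 128, 125 and 124 FPKM in PaS wt libraries. It was 2.82-fold higher in CAR cells, with no overlap (log2 difference 1.49, SE 0.05, adjusted p = 1.5e-12). Efemp2, or fibulin-4, which brings lysyl oxidase to tropoelastin, had 215, 210.2 and 206 FPKM in CAR wt and 123, 144 and 139 FPKM in PaS wt libraries. CAR libraries were all higher, by 1.55-fold (log2 difference 0.64, SE 0.07, adjusted p = 9.3e-07). Of the summed FPKM of these 4 fibulins, Fbln5 was 56.5% ± 1.13 in CAR wt and 22.2% ± 0.357 in PaS wt libraries, and Fbln2 was 0.812% ± 0.0941 and 36.2% ± 1.36 (SD, n = 3).

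The lysyl oxidases, copper-dependent enzymes that start the cross-links, differed from each other. Lox had 151, 157 and 151 FPKM in CAR wt and 73.1, 67.0 and 70.3 FPKM in PaS wt libraries, 2.19-fold higher in CAR cells with no overlap (log2 difference 1.12, SE 0.06, adjusted p = 3.7e-10). Loxl1, the family member that binds Fbln5, had 89.2, 91.2 and 85.4 FPKM in CAR wt and 84.8, 87.1 and 88.0 FPKM in PaS wt libraries, and these overlap. Its log2 difference was 0.03, with a 95% confidence interval of -0.09 to 0.16 (adjusted p = 0.69). The ratio of Lox to Loxl1 FPKM was 1.73 ± 0.0366 in CAR wt and 0.810 ± 0.0478 in PaS wt libraries (SD, n = 3), so the more abundant of the pair was Lox in every CAR wt library and Loxl1 in every PaS wt library.

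Between the ko groups, 9 of the 10 genes were again called, 4 higher and 5 lower in CAR cells, where 36.9% of tested genes were called (17% higher, 19.8% lower), and 9 did not overlap (47.9% of tested genes). Here too Fbn2 passed the filter through CAR libraries alone, and without it 8 of 9 genes were called, 3 higher and 5 lower, and 8 did not overlap. Loxl1 was the one not called (log2 difference 0.01, 95% confidence interval -0.11 to 0.14). In mean FPKM, PaS ko libraries exceeded CAR ko libraries 13.6-fold for Eln, 27.4-fold for Fbln2, 5.28-fold for Mfap4, 3.00-fold for Fbln1 and 1.32-fold for Fbn1. CAR ko libraries exceeded PaS ko libraries 2.56-fold for Fbln5, 2.32-fold for Lox and 1.59-fold for Efemp2. Whether these gaps differ from those between the wt groups is the same question as whether the ko and wt libraries differ unequally in the 2 populations, which is tested below.

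Within CAR cells, the ko libraries were then set against the wt libraries. Lox rose in libraries labelled ko, and Loxl1, Fbln1 and Fbln5 fell, the largest of these changes being the 1.38-fold rise of Lox, while Eln, Fbn1, Fbn2, Fbln2, Efemp2 and Mfap4 were not called. That is 4 of 10 genes called, 1 higher and 3 lower, where 12.3% of all tested genes were called (6.51% higher, 5.74% lower). The libraries of the groups did not overlap for 5 of the 10 (those called and Fbn1), against 29.9% of tested genes. The median log2 fold change was 0.08 over the 10 genes and 0.01 over all tested genes, and the median of its size 0.23 and 0.16. An exact permutation test of 3 against 3 libraries cannot give a p under 0.1.

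Lox had 151, 157 and 151 FPKM in CAR wt and 222, 209 and 204 FPKM in CAR ko libraries. Every ko library was higher, by 1.38-fold on average (log2 fold change 0.46, SE 0.06, adjusted p = 1.1e-04). Loxl1 had 89.2, 91.2 and 85.4 FPKM in CAR wt and 69.6, 73.8 and 72.8 FPKM in CAR ko libraries, and every ko library was lower (log2 fold change -0.29, SE 0.06, adjusted p = 0.0032). The ratio of Lox to Loxl1 was 1.70, 1.72 and 1.77 in the wt and 3.18, 2.82 and 2.81 in the ko libraries, without overlap.

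Fbln1 had 58.9, 55.4 and 58.0 FPKM in CAR wt and 45.8, 45.7 and 45.9 FPKM in CAR ko libraries. All ko libraries were lower (log2 fold change -0.32, SE 0.07, adjusted p = 0.0060). Fbln5, the most abundant of the 10 in CAR cells, had 344, 358 and 362 FPKM in wt and 318, 301 and 303 FPKM in ko libraries, again all lower (log2 fold change -0.21, SE 0.05, adjusted p = 0.015). It was no longer called without CAR wt replicate 3 (adjusted p = 0.061), CAR ko replicate 2 (0.065) or CAR ko replicate 3 (0.056). Efemp2 had 215, 210.2 and 206 FPKM in wt and 209, 222 and 225 FPKM in ko libraries, which overlap (log2 fold change 0.05, 95% confidence interval -0.09 to 0.19, adjusted p = 0.68). Fbln2 stayed between 4.54 and 5.83 FPKM in all 6 CAR libraries (log2 fold change 0.11, adjusted p = 0.50).

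Eln had 4.02, 2.44 and 2.48 FPKM in CAR wt and 3.22, 3.22 and 3.62 FPKM in CAR ko libraries, with overlap (log2 fold change 0.15, 95% confidence interval -0.13 to 0.43, adjusted p = 0.54). Fbn1 had 52.2, 57.8 and 47.7 FPKM in wt and 40.4, 46.7 and 46.4 FPKM in ko libraries. The ko libraries were all lower, but the fold change was not called (log2 fold change -0.23, SE 0.08, adjusted p = 0.068). It was called without CAR wt replicate 3 (adjusted p = 0.035) and under quantile normalization (0.045). Mfap4 had 24.1, 29.4 and 35.6 FPKM in wt and 32.2, 37.3 and 34.6 FPKM in ko libraries, with overlap (log2 fold change 0.23, SE 0.11, adjusted p = 0.20). Without CAR wt replicate 3, the highest wt library, its log2 fold change was 0.37 (adjusted p = 0.026). For Fbn2 the log2 fold change was 0.26 (adjusted p = 0.47), and one ko library, at 2.29 FPKM, lay among the wt libraries.

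The same comparison was made within PaS cells. Mfap4, Eln, Fbln1 and Lox rose in libraries labelled ko, and Fbn1, Fbln2 and Loxl1 fell, while Fbn2, Fbln5 and Efemp2 were not called. So 7 of 10 genes were called, 4 higher and 3 lower, where 7.44% of all tested genes were called (3.41% higher, 4.03% lower). Libraries of wt and ko did not overlap for 8 of the 10 (all but Fbn2 and Efemp2), against 23.4% of tested genes. The median log2 fold change was -0.02 over the 10 genes and 0.00 over all tested genes, and the median of its size 0.40 and 0.14.

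Mfap4 had 83.5, 90.5 and 91.6 FPKM in PaS wt and 186, 192 and 171 FPKM in PaS ko libraries. Every ko library was far above every wt library, by 2.07-fold on average, the largest change of the 10 in either population (log2 fold change 1.04, SE 0.11, adjusted p = 1.3e-05). Its share of the summed elastic fibre genes was 9.49% ± 0.467 in wt and 18.4% ± 0.846 in ko libraries (SD, n = 3). Eln had 30.2, 30.5 and 28.5 FPKM in wt and 45.2, 47.0 and 44.5 FPKM in ko libraries, with no overlap, a 1.53-fold higher mean (log2 fold change 0.60, SE 0.13, adjusted p = 0.0088). Fbn1 had 93.0, 90.0 and 89.1 FPKM in wt and 60.5, 56.8 and 58.5 FPKM in ko libraries, all lower (log2 fold change -0.62, SE 0.08, adjusted p = 9.8e-05). The ratio of Eln to Fbn1 FPKM, the core of the fibre against its scaffold, was 0.325, 0.338 and 0.320 in wt and 0.746, 0.828 and 0.762 in ko libraries, and these do not overlap. In CAR cells the same ratio was 0.0571 ± 0.0180 in wt and 0.0756 ± 0.00594 in ko libraries (SD, n = 3), which overlap. Fbn2 was under 1 FPKM in all 6 PaS libraries (log2 fold change -0.24, adjusted p = 0.58).

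Among the fibulins, Fbln1 had 105, 89.6 and 105 FPKM in PaS wt and 137, 134 and 141 FPKM in PaS ko libraries, all higher (log2 fold change 0.46, SE 0.07, adjusted p = 4.3e-04). Fbln2 had 210.4, 209 and 195 FPKM in wt and 146, 159.9 and 151 FPKM in ko libraries, all lower (log2 fold change -0.43, SE 0.09, adjusted p = 0.0050). The share of Fbln2 in the summed fibulins was 36.2% ± 1.36 in wt and 27.8% ± 0.807 in ko, and that of Fbln1 17.7% ± 1.66 and 25.1% ± 1.03 (SD, n = 3). Fbln5 had 128, 125 and 124 FPKM in wt and 120.4, 122 and 117 FPKM in ko libraries. The groups did not overlap, but the difference was small and was not called (log2 fold change -0.07, 95% confidence interval -0.18 to 0.04, adjusted p = 0.51). Efemp2 had 123, 144 and 139 FPKM in wt and 137, 143 and 133 FPKM in ko libraries, with overlap (log2 fold change 0.03, 95% confidence interval -0.11 to 0.17, adjusted p = 0.88).

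Lox had 73.1, 67.0 and 70.3 FPKM in PaS wt and 92.9, 86.6 and 94.3 FPKM in PaS ko libraries, all higher (log2 fold change 0.38, SE 0.06, adjusted p = 7.7e-04). Loxl1 had 84.8, 87.1 and 88.0 FPKM in wt and 70.8, 70.2 and 72.9 FPKM in ko libraries, all lower (log2 fold change -0.28, SE 0.06, adjusted p = 0.0065). The ratio of Lox to Loxl1 was 0.862, 0.769 and 0.799 in wt and 1.31, 1.23 and 1.29 in ko libraries, so Lox was below Loxl1 in each wt and above it in each ko library.

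**Figure D3:**
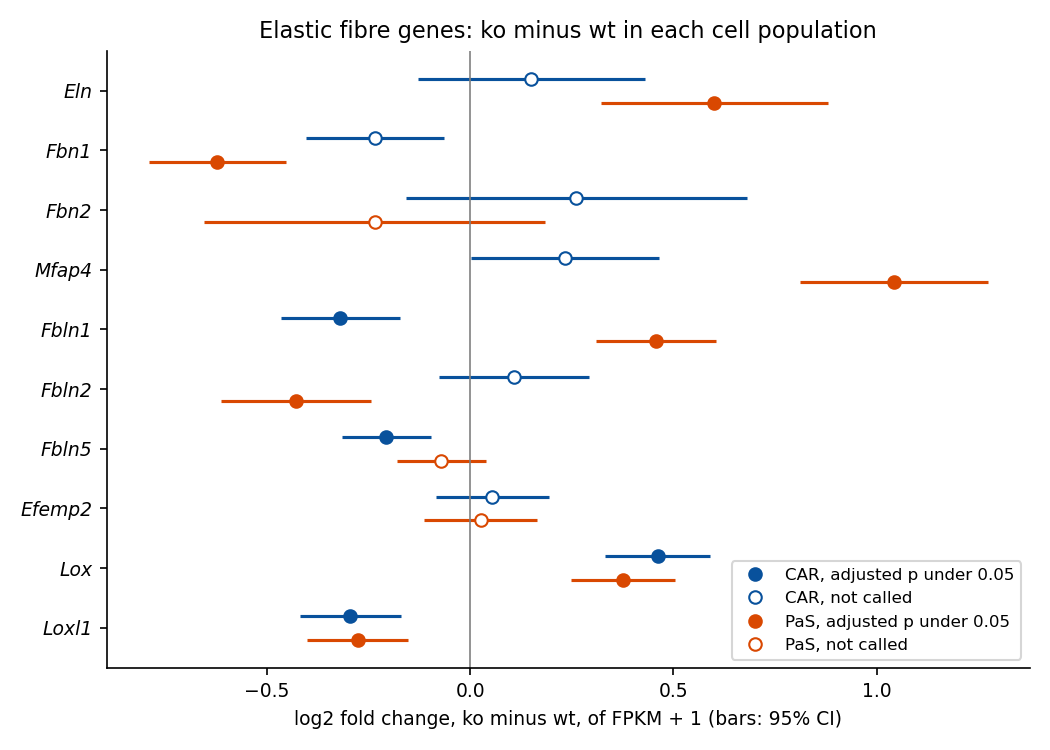
Log2 fold change of FPKM + 1, ko minus wt (horizontal axis), of each elastic fibre gene in CAR cells (blue) and PaS cells (orange), with 95% confidence intervals as bars and filled points where limma's adjusted p was under 0.05. Lox lies right of 0 and Loxl1 left of 0 in both populations, and Fbln1 lies at -0.32 in CAR and 0.46 in PaS cells.

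The last comparison asks whether the ko minus wt difference itself differed between the populations. It was called for 3 of the 10 genes, Fbln1, Mfap4 and Fbln2, 1 with the CAR value higher and 2 with it lower, where 6.58% of all tested genes were called (3.32% higher, 3.26% lower). Fbln1 fell in CAR and rose in PaS cells, a difference of effects, CAR minus PaS, of -0.78 on the log2 scale (SE 0.10, adjusted p = 1.6e-04). For Mfap4, with fold changes of 0.23 in CAR and 1.04 in PaS cells, the difference was -0.81 (SE 0.15, adjusted p = 0.0044). For Fbln2, with 0.11 and -0.43, it was 0.54 (SE 0.12, adjusted p = 0.015).

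The other 7 genes were not called. Fbn1 had -0.23 in CAR and -0.62 in PaS cells, a difference of 0.39 (SE 0.11, adjusted p = 0.051), and it was called without CAR wt replicate 2 (adjusted p = 0.024) or CAR ko replicate 1 (0.025). Eln had 0.15 and 0.60, a difference of -0.45 with a 95% confidence interval of -0.85 to -0.06 before adjustment (adjusted p = 0.18). With a pseudocount of 5, Eln (adjusted p = 0.023) and Fbn1 (0.039) were both called, giving 5 genes. Lox differed by 0.09 (95% confidence interval -0.10 to 0.27) and Loxl1 by -0.02 (-0.19 to 0.16), so for these enzymes larger differences of effect than these bounds lie outside the intervals. The differences were -0.14 for Fbln5 (adjusted p = 0.32), 0.03 for Efemp2 (0.91) and 0.50 for Fbn2 (0.35).

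Other cell types' markers moved with some of these genes. Smooth muscle cells and fibroblasts of vessel walls and tendon also make elastic fibres. Summed over 7 smooth muscle and pericyte markers, the level was 23.7 to 27.1 FPKM in CAR wt, 30.5 to 32.7 in CAR ko, 28.8 to 32.8 in PaS wt and 47.5 to 49.9 in PaS ko libraries. Of 6 tested, 3 rose in PaS ko (Acta2, Tagln and Rgs5) and 1 in CAR ko (Cspg4). Of all tested genes, 3.41% rose in PaS and 6.51% in CAR cells. Des had lower means in ko, 5.62 against 6.72 FPKM in CAR and 4.54 against 5.56 FPKM in PaS cells, and was called in neither. Cnn1 was under 1 FPKM in every library. Myh11, a defining gene of smooth muscle, had group means of 0.773 to 1.36 FPKM and was not called. Of 3 tendon markers, Scx and Mkx rose in PaS ko libraries, where 3.41% of all tested genes rose. Scx went from 5.88 ± 0.967 to 15.5 ± 3.33 FPKM (SD, n = 3). Tnmd, the most abundant of the 3 in PaS cells, went the other way, from 49.9 ± 3.00 to 39.3 ± 5.82 FPKM (SD, n = 3). It was not called (log2 fold change -0.34, adjusted p = 0.36). None of the 3 was called in CAR cells with all libraries. Left-out libraries gave 2 calls there, Scx higher in ko without CAR wt replicate 3 (adjusted p = 0.014) and Tnmd lower without CAR ko replicate 2 (0.049). The call of Mkx was lost with unfiltered genes and without PaS wt replicate 1, 2 or 3 or PaS ko replicate 2. The sum of the tendon markers was 57.5 to 64.4 FPKM in PaS wt and 60.7 to 68.5 FPKM in PaS ko libraries. Osteoblasts lay down collagen, which Lox also cross-links. Their marker Col1a1 was listed at 0 in CAR ko replicates 2 and 3 and was called lower there, a call that was lost with these zeros as missing (adjusted p = 0.25). The other 4 osteoblast markers summed to 9545 to 11264 FPKM in CAR wt, 15293 to 20598 in CAR ko, 1448 to 1572 in PaS wt and 1821 to 1971 in PaS ko libraries, and all 4 rose in both populations, where 6.51% of all tested genes rose in CAR and 3.41% in PaS cells. The call of Sp7 in CAR was lost with unfiltered genes and without CAR wt replicate 1 or 3 or CAR ko replicate 2. The call of Ibsp in PaS was lost with unfiltered genes, with the compared groups alone and without any one of 5 of the 6 PaS libraries, all but wt replicate 2. Chondrocyte markers summed to 639 to 751 FPKM in CAR wt, 665 to 748 in CAR ko, 1143 to 1255 in PaS wt and 1151 to 1307 in PaS ko libraries. Comp was most of the PaS sums, with means of 1177 FPKM in PaS wt and in PaS ko, beside 284 in CAR wt and 423 in CAR ko. Of the 5 markers, 3 were called higher and 1 (Comp) lower in CAR wt than in PaS wt libraries, where 20.5% and 22.7% of all tested genes were. In PaS ko 3 of the 5 markers rose (Col2a1, Acan and Col9a1), where 3.41% of all tested genes rose. Col9a1 was low in PaS cells, with means of 0.297 FPKM in wt and 1.67 FPKM in ko. In CAR ko 2 of the 5 rose (Sox9 and Comp) and 2 fell (Col2a1 and Col9a1), where 6.51% and 5.74% of all tested genes did. The call of Col9a1 in PaS was lost in 6 of 15 other settings, and in CAR that of Col2a1 in 5 and of Sox9 in 3. These included left-out libraries, for Col9a1 PaS wt replicate 2 and PaS ko replicates 1 and 2, for Col2a1 CAR wt replicates 1 and 2 and CAR ko replicate 1, and for Sox9 CAR wt replicate 1 and CAR ko replicate 2. Endothelial markers summed to 5.55 to 5.77 FPKM in CAR wt, 4.74 to 7.76 in CAR ko, 33.7 to 40.8 in PaS wt and 23.4 to 27.8 in PaS ko libraries. Of these 5 markers only Tek fell with a call in PaS cells, its mean going from 21.0 to 8.31 FPKM (adjusted p = 1.4e-04). The other 4 were not called there. Emcn had a higher mean in ko (8.43 against 5.18 FPKM), while Pecam1, Cdh5 and Kdr had lower ones. The part of such cells in the rise of Mfap4, Eln, Fbln1 and Lox was not tested.

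The remaining genes of the pathway were taken from 3 lists of partners, cross-linking enzymes and elastin-cleaving enzymes. Of 18 tested partners of microfibrils and fibulins, 14 were lower and 3 higher in CAR wt than in PaS wt libraries, where 22.7% of all tested genes were lower and 20.5% higher, with a median log2 difference of -1.32 (-0.00 over all tested genes). Hmcn1 passed the filter only through PaS libraries, and without it 13 of 17 were lower. Mfap5, a microfibril glycoprotein, had 6.11, 5.93 and 7.14 FPKM in CAR wt and 671, 593 and 732 FPKM in PaS wt libraries (log2 difference -6.49, adjusted p = 5.9e-16). Ltbp4, which binds latent TGF-beta and Fbln5, had means of 7.57 and 289 FPKM, and Fbln7 of 9.28 and 170.1 FPKM (adjusted p = 5.0e-15 and 1.9e-14). These partners were lower in every CAR library than in every PaS library, whereas Fbln5 and Efemp2 were higher in every CAR library.

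In CAR cells 6 partners rose and 1 fell in libraries labelled ko, and in PaS cells 2 rose and 4 fell. Of all tested genes, 6.51% rose and 5.74% fell in CAR, and 3.41% rose and 4.03% fell in PaS cells. The median log2 fold change of the list was 0.29 in CAR and -0.07 in PaS cells, beside 0.01 and 0.00 over all tested genes. Efemp1, or fibulin-3, had 76.8, 73.7 and 71.6 FPKM in CAR wt and 105, 111 and 98.7 FPKM in CAR ko libraries, all higher. In PaS cells it had 239, 261 and 226 FPKM in wt and 133, 148 and 147 FPKM in ko libraries, all lower. Its log2 fold changes were 0.49 and -0.76, and their difference of 1.25 was called (SE 0.10, adjusted p = 1.5e-06). Fn1, the fibronectin on which microfibrils assemble, had means of 56.9 ± 9.96 and 103 ± 17.5 FPKM in CAR wt and ko, and 1192 ± 56.0 and 823 ± 11.4 FPKM in PaS wt and ko libraries (SD, n = 3). Its log2 fold changes were 0.84 and -0.53, with a difference of 1.37 (adjusted p = 1.3e-04), and without the filter the PaS call was lost (adjusted p = 0.060). The direction of Efemp1 and Fn1 in each population was opposite to that of Fbln1.

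The other partners called in CAR cells were Fbln7, Ltbp4, Adamts10 and Adamtsl2, which rose, and Emilin2, which fell. With unfiltered genes or the compared groups alone, Ltbp4 and Emilin2 were no longer called. The call of Ltbp4 was also lost without CAR wt replicate 3 or CAR ko replicate 2, that of Adamts10 without CAR ko replicate 2, and that of Emilin2 without CAR wt replicate 1 or 2 or CAR ko replicate 3. Adamtsl2 was listed at 0 in CAR wt replicate 2 and reached at most 1.99 FPKM in CAR libraries. In PaS cells Emilin2, a glycoprotein of the emilin family, fell from 86.6 ± 3.76 to 44.9 ± 3.37 FPKM (SD, n = 3; log2 fold change -0.93, adjusted p = 0.0011), and Adamtsl4 fell too. Emilin1 and Ltbp2 rose there, with log2 fold changes of 0.30 each. The call of Emilin1 was lost without PaS wt replicate 1 or PaS ko replicate 3, and that of Ltbp2 without PaS wt replicate 2 or 3 or PaS ko replicate 1 or 3, and also with the compared groups alone.

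Of 7 tested enzymes and activators of cross-linking, 2 rose in CAR ko libraries and none fell (6.51% and 5.74% of all tested genes). In PaS cells, where 7.44% of all tested genes were called, limma called none, with 2 at an unadjusted p under 0.05 (Pcolce and Loxl3). Bmp1, the protease that cuts the Lox precursor, had 120.1, 116 and 116 FPKM in CAR wt and 149.9, 159.7 and 164 FPKM in CAR ko libraries, all higher (log2 fold change 0.42, SE 0.06, adjusted p = 3.9e-04). Its log2 fold change in PaS cells was -0.13 (adjusted p = 0.31), and the difference of effects, 0.55, was called (adjusted p = 0.0016). Loxl4 rose from 6.18 ± 0.712 to 12.5 ± 2.83 FPKM in CAR cells (SD, n = 3; log2 fold change 0.90, adjusted p = 0.0077). Pcolce, an enhancer of procollagen processing, had a log2 fold change of -0.22 in PaS cells (adjusted p = 0.063), and was called without PaS wt replicate 2.

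Of 8 enzymes that cleave elastin, Mmp7 and Mmp12 were under 1 FPKM in every library, and 6 were tested. Of these 2 rose and 3 fell in CAR ko, and 2 rose and 2 fell in PaS ko libraries, with the same shares of all tested genes as above. Mmp2, or gelatinase A, had 175, 186 and 187 FPKM in CAR wt and 284, 313 and 308 FPKM in CAR ko libraries, all higher (log2 fold change 0.72, SE 0.05, adjusted p = 3.1e-07). The PaS libraries held more Mmp2, 885 ± 19.7 FPKM in wt against 905 ± 5.49 in ko (SD, n = 3; log2 fold change 0.03, adjusted p = 0.81). Ctsk, cathepsin K, rose in both, with log2 fold changes of 0.21 (adjusted p = 0.032) and 0.46 (adjusted p = 1.3e-04), and its CAR call was lost with unfiltered genes and without any one of 5 of the 6 CAR libraries, all but wt replicate 3. Elane, the elastase of neutrophils and one of the blood cell markers above, fell in both, from 483 ± 67.7 to 153 ± 11.7 FPKM in CAR and from 163 ± 6.89 to 83.1 ± 5.85 FPKM in PaS cells (SD, n = 3). Mmp9, also a product of neutrophils, fell in both as well. Ctss, cathepsin S, fell in CAR cells (log2 fold change -1.12) and rose in PaS cells (0.69). Of the 9 blood cell markers, Elane included, 9 fell in CAR ko and 6 in PaS ko libraries, where 5.74% and 4.03% of all tested genes fell, and their part in the fall of Mmp9 was not tested. The other 3 were not called in PaS cells, with log2 fold changes of -0.41 for Ptprc, 0.04 for Hbb-b1 and 0.47 for Cd79a. Cd79a (adjusted p = 0.062) was called higher in PaS ko in 3 of 15 other settings. The call of Pf4 in CAR was lost with unfiltered genes, with the compared groups alone and without CAR wt replicate 3 or CAR ko replicate 1 or 3, and that of Mpo in PaS with unfiltered genes.

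**Figure D4:**
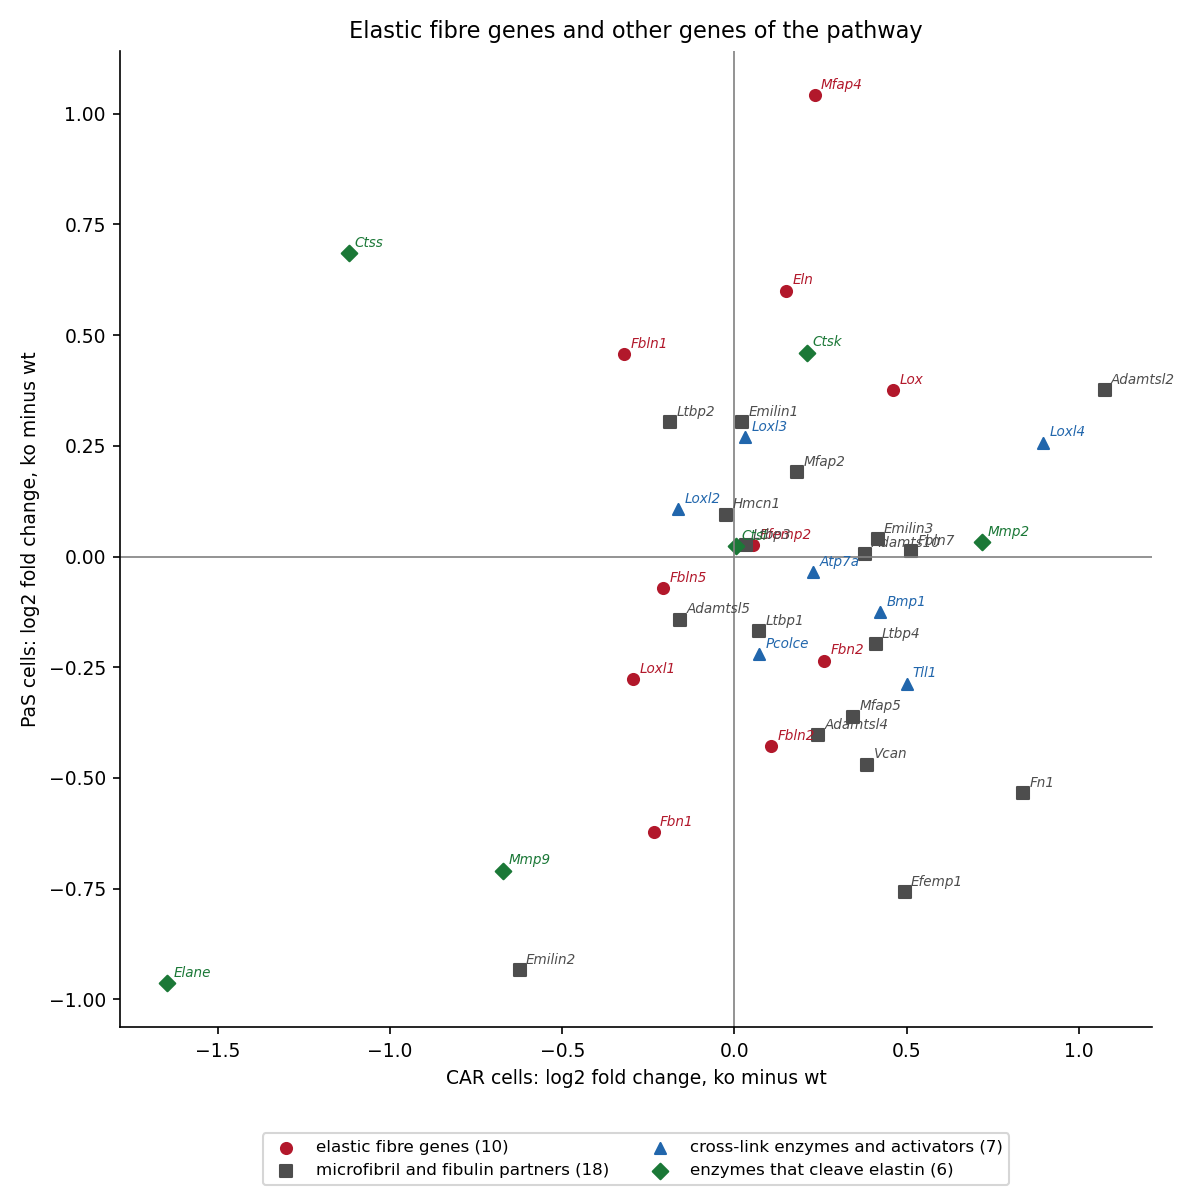
Log2 fold change of FPKM + 1, ko minus wt, in CAR cells (horizontal axis) and in PaS cells (vertical axis) for the 10 elastic fibre genes and the 31 other tested genes of the pathway lists, a point per gene. Efemp1 and Fn1 lie at lower right (higher in CAR ko, lower in PaS ko), Fbln1 at upper left and Lox at upper right, and the axes share no libraries.

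The genes whose pattern over the 12 libraries lay nearest to those of Eln and Fbn1 were found by the mean absolute difference of log2(FPKM + 1) after centring each gene on its own mean. For Eln they were Il33, an alarmin cytokine (0.20), Osr1, a transcription factor of connective tissue (0.20), and Epyc, a small proteoglycan of cartilage (0.20). Il33 had mean levels of 2.28, 3.37, 34.5 and 47.2 FPKM in the wt and ko libraries of CAR cells and then of PaS cells, Osr1 of 2.51, 4.33, 36.2 and 43.0 FPKM, and Epyc of 0.814, 1.30, 14.3 and 30.0 FPKM. For Fbn1 they were Lamc1, a laminin chain of basement membranes (0.07), Ctdsp2, a phosphatase (0.09), and Pou2f2, a transcription factor of B cells at 1.51 FPKM or less in every library (0.10). Lamc1 had means of 32.6, 28.7, 60.4 and 40.8 FPKM in the same order, and Ctdsp2 of 31.9, 25.6, 47.4 and 36.3 FPKM. Pou2f2 had means of 0.416, 0.122, 1.40 and 0.641 FPKM. At such low levels log2(FPKM + 1) understates fold changes, so its nearness does not mean that its fold changes in FPKM were like those of Fbn1.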

How the data were processed

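RNA of 12 sorted cell samples was measured, and the authors deposited one table of FPKM values per library, per the file headers. bcl2fastq 2.17.1.14, TopHat2 2.0.14, Cufflinks 2.2.1, Cuffnorm 2.2.1 and Cuffdiff are named with genome mm10, per the submitters' processing notes. The order of the steps, the annotation, filters and strand use are not given in the sources used here. The depth is unknown, as the tables hold no read counts, which leaves no counting interval. Libraries appear scaled to one another, since their median ratios to the geometric mean lay between 1.007 and 1.013. No 2 of the 66 library pairs held identical values, and replicates differed by a median of 0.0973 to 0.137 on the log2 scale.

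The 12938 genes that reached 1 FPKM in at least 3 libraries were tested as log2(FPKM + 1) in one 4-group model with limma 3.58.1 in R 4.3.3 (eBayes with a trend, 8 residual and 6.95 prior degrees of freedom). On this scale low genes have their fold change understated. Tests were two-sided, with Benjamini-Hochberg adjustment over all tested genes, and every adjusted p comes from limma. Errors beside log2 values are standard errors of the model, and ratios of FPKM are of group means. The 10 genes all passed the filter. The script was tested on simulated data.

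The members, lists and tests were chosen with earlier results of these data known. Named genes were the 10 members, up to 3 per pathway list and contrast with the smallest p, and the 3 nearest in pattern to Eln and to Fbn1. The other list genes and markers were named after their values were seen, to account for every call. The other settings tried were pseudocounts of 0.1 and 5, testing unfiltered genes, filtering at 5 FPKM, quantile normalization, median-ratio scaling, the compared groups alone, zeros beside at least 100 FPKM set as missing, the replicate number as a block, and each library left out. Promoter sequences are RefSeq's, of GRCm38.p6, whose primary assembly is that of mm10. The plots come from matplotlib 3.10.9 (Python 3.11.15).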

Additional observations from a re-analysis of the deposited data

Results flagged for a closer look

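The ko minus wt difference differed between CAR and PaS cells, by a test of the interaction in limma, for 3 of the 10 elastic fibre genes. Of all tested genes, 6.58% were called in this test. The difference of log2 fold changes, CAR minus PaS, was -0.78 for Fbln1 (adjusted p = 1.6e-04), which was lower in 3 of 3 CAR ko libraries than in any CAR wt library and higher in 3 of 3 PaS ko libraries than in any PaS wt library. It was -0.81 for Mfap4 (adjusted p = 0.0044), where the PaS ko libraries were all higher and the CAR libraries overlapped. For Fbln2 it was 0.54 (adjusted p = 0.015), with the PaS ko libraries all lower and the CAR libraries overlapping. Libraries of wt and ko did not overlap for 29.9% of all tested genes in CAR and 23.4% in PaS cells.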

How the results depend on the processing

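Of 795 values of the 10 genes under the alternatives, 777 kept their direction and their side of the threshold, 3 lost a call, 9 gained one and 6 changed sign. The lost calls were all of Fbln5 in CAR cells. With a pseudocount of 5 the number of genes called for the difference of effects went from 3 to 5, by Eln and Fbn1. Fbn1 was also called there with a filter of 5 FPKM (adjusted p = 0.042) and under quantile normalization (0.0498). Leaving out 1 library in turn gave 3 to 5 called genes for CAR ko minus wt, 7 to 7 for PaS ko minus wt, 3 to 4 for the difference of effects and 9 to 9 for CAR minus PaS in both the wt and the ko groups. The sign changes were all of values near 0 that were not called. Over the left-out libraries, the log2 fold change of Efemp2 in PaS cells ran from -0.043 to 0.073 and its difference of effects from -0.019 to 0.097. The difference of effects of Loxl1 ran from -0.043 to 0.0071, and its ko CAR minus ko PaS value from -0.0033 to 0.039. With the filter of 5 FPKM, Fbn2 was not tested, and 8 genes were called for CAR minus PaS in both the wt and the ko groups. The difference of effects could not be fitted to fewer than all 4 groups.

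With the replicate number as a block, the numbers of called genes were 4 for CAR ko minus wt, 7 for PaS ko minus wt, 3 for the difference of effects and 9 for each CAR minus PaS comparison, and over all genes 961 were called for PaS ko minus wt, against 962. Same-numbered libraries correlated in their deviations by -0.04 to 0.11, over 0.1 in 1 of 12 pairs, so the numbers were not taken to pair the samples, and in 2 of the 12 pairs the libraries with the same number correlated best. FPKM without counts limits what can be said of Fbn2 and Eln, the lowest of these genes.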
